A study of Arabidopsis thaliana with 4 samples.

Results

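Late embryogenesis abundant (LEA) and maturation genes were followed in Arabidopsis thaliana seedlings in which the embryo regulator LEAFY COTYLEDON1 (LEC1) was switched on with estradiol. The genes are those for which a probe set of the array is annotated to 1 gene only, that gene being AtLEA4-1 (AT1G32560), the dehydrin named LEA (AT2G21490), AT3G17520, AT5G44310, AT4G21020, AT3G02480 or AT1G04560. Each of the 7 genes had 1 such probe set, out of 13286 genes that a probe set names alone. The first 6 belong to the LEA family, and AT1G04560 belongs to the AWPM-19-like family of small membrane proteins, so it is a maturation gene but no LEA gene.

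LEA proteins are very hydrophilic proteins that accumulate late in seed development, when the embryo acquires tolerance to drying, and their transcripts decline as the seed germinates. Many have little fixed structure in solution and become more ordered as water is lost, and individual members have been shown to protect membranes or enzymes in the test tube. The family is divided into classes by conserved sequence blocks. Dehydrins carry a lysine-rich block that can bind membranes, LEA_1 proteins are small and disordered, and LEA_4 proteins are built of short repeats that can form amphipathic helices. LEC1 is a seed-specific B subunit of the nuclear factor Y transcription factor.

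All seedlings were of the Columbia ecotype and carried the pER8-LEC1 transgene, and they were germinated and grown on medium with 3% sucrose under continuous white light at 22 °C. The group called LEC1 induced was kept on medium with 10 µM estradiol for 4 days, and the control group on medium with 0.1% DMSO for the same 4 days. The sample labels give no DMSO content for the estradiol medium, so whether the solvent was matched is not known here. Each group had 2 biological replicates of about 100 mg of whole seedlings, giving 4 Affymetrix ATH1 arrays. Seedlings without the transgene were not among them, so the effects of estradiol and of LEC1 cannot be told apart. The labels do not say how many transgenic lines were used, and the level of LEC1 itself, which no probe set names alone, was not analysed here. In whole seedlings, fewer cells of a type and less RNA per cell cannot be told apart either.

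Medians of the deposited signals ran from 15.5 to 20 in controls and from 22.3 to 39.4 in induced seedlings, so signals were quantile normalized before testing. A normalized signal of 13.9, the 40th percentile, is used below as a dim limit, under which a signal is not read as a level. Where a pair of signals is given for a group, replicate 1 comes first and replicate 2 second. Of 14433 probe sets tested, 408 were called higher in induced seedlings, which is 2.83%, and 420 lower, which is 2.91%, at a limma adjusted p under 0.05. The median log2 change over these 14433 was 0 to 2 decimals after quantile normalization, -0.135 after median centring and 0.616 without normalization. Markers of green tissue were bright on every array: LHCB4.1, an antenna protein of photosystem II, had a mean normalized signal of 3345 in controls against 1741 after induction, and PORB, a chlorophyll synthesis enzyme, had 1738 and 458.7 (limma adjusted p = 0.0446 and 0.023, and 0.2 for LHCB4.1 without normalization). These were the 2 of 7 listed green tissue markers that a probe set names alone. Of 6 listed root markers, EXPA7, an expansin of root hairs, could be read, with 81.1 in controls against 34.5 after induction (limma adjusted p = 0.142). Of 6 listed seed storage tissue markers 2 could be read. PAP85, a storage globulin, was under the dim limit in controls and reached 5540 in induced seedlings (limma adjusted p = 4.06e-05). It entered the test only through the induced arrays, so this p-value is no support. OLEO3, an oil body coat protein, had 39.8 against 5283 (limma adjusted p = 0.000119). The green tissue and seed markers thus moved with the groups, and their part in the changes of the LEA genes was not tested.

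All 7 genes passed the test and were higher in induced seedlings, beside 2.83% of all probe sets tested. The genes were chosen with results of these arrays known, so this count is fixed by the choice and nothing is read from it. The same holds for the 7 of 7 with both induced arrays above both control arrays, a pattern that 29.3% of all tested probe sets and all 408 called higher showed. The smallest distance between the groups was that of AT3G02480, whose lower induced array lay 2.1 log2 units above its higher control array. The genes differed in their control level. On both control arrays AT5G44310 and AT1G04560 were under the dim limit, and because their control signals were also under the filter they entered the test only through the induced arrays. AtLEA4-1, LEA and AT3G17520 had 1 of 2 control arrays under the dim limit. That array was under the filter too, so these genes also needed an induced array to enter the test. Their p-values and calls are thus a description and no support. AT4G21020 and AT3G02480 had no control array under the limit.

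**Figure D1:**
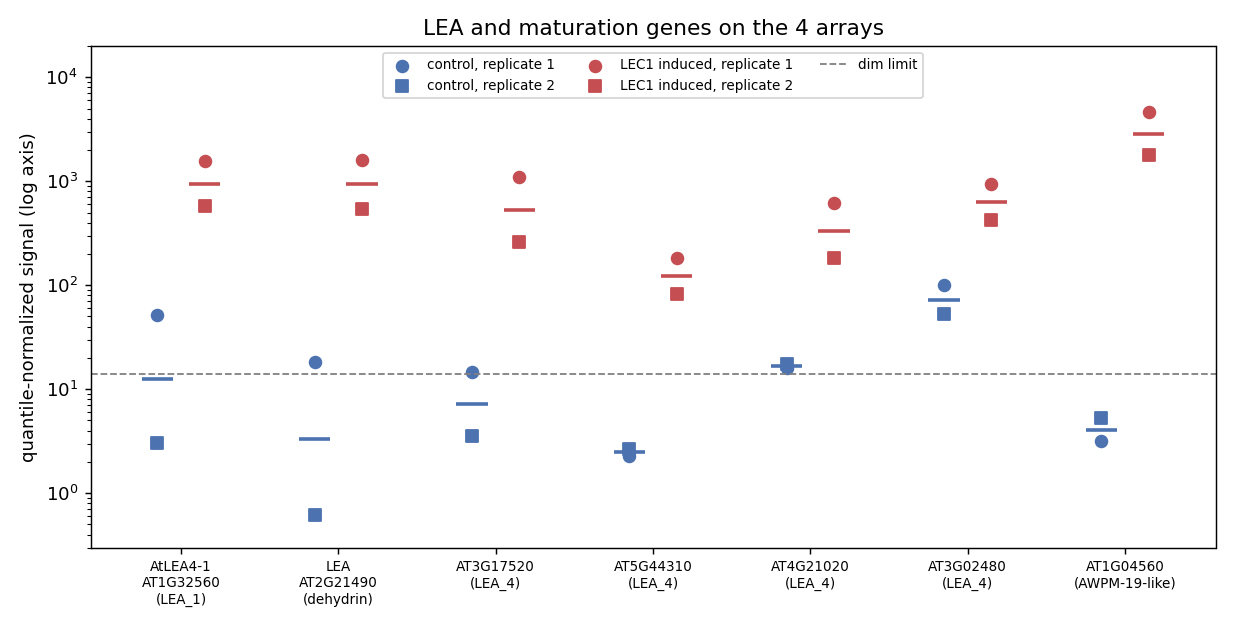
Quantile-normalized signal (log axis) of the 7 genes on each of the 4 arrays, with controls in blue, LEC1-induced seedlings in red, circles for replicate 1, squares for replicate 2, short bars for the geometric mean of each group and a dashed line at the dim limit of 13.9. Every induced point lies above every control point of the same gene, and on all 7 genes the induced replicate 1 array is the brighter of the induced pair.

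The dehydrin LEA (AT2G21490) rose from signals near or under the dim limit to a bright signal. The deposited signals were 15.8 and 0.5 for the control pair and 1955.7 and 457.5 for the induced pair. The 2 control values lay far apart on the log scale, and neither came near an induced value. After normalization the mean was 929.9 in induced seedlings (log2 signal 9.86 ± 1.09 SD, n = 2), at least 58.7-fold above a control mean taken with the dim array at the limit. The fitted log2 change was 8.12 ± 1.46 SE (limma adjusted p = 0.0329), and 5.87 with dim signals set to the limit. It was 10.54 without control replicate 1 and 5.60 without control replicate 2, so its size rests on which control array is used, and it passed in both cases (limma adjusted p = 0.00285 and 0.036). It also passed with the first or the second induced array left out, at 7.36 and 8.98.

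Of 9 listed dehydrins 5 were measured, that is, named alone and bright enough for the test, and 1, the chosen gene AT2G21490, was called higher and 0 lower. The other 4 were visible in control seedlings already. COR47, a cold-regulated dehydrin, had normalized signals of 776.1 and 458.3 in controls against 2146 and 1207 in induced seedlings, a log2 change of 1.43 ± 0.39 SE that did not pass (limma adjusted p = 0.0842). Its induced arrays were both above its control arrays. LTI30, named for its induction by low temperature, had 229.1 and 81.1 against 784.2 and 187.8, so its groups overlapped, with a log2 change of 1.49 ± 0.77 SE (limma adjusted p = 0.267). The small dehydrin AT1G54410 had signals of 1029 and 859.8 on replicate 1 and 799.9 and 1104 on replicate 2, control first in each case. Its difference of 0.10 ± 0.27 SE turned to -0.551 under median centring. The remaining dehydrin, AT4G38410, differed by 0.56 ± 0.57 SE (limma adjusted p = 0.562).

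AtLEA4-1, of the LEA_1 class, had deposited signals of 46.4 and 2.3 in controls against 1908.6 and 485.7 in induced seedlings. As for the dehydrin, the control arrays stood well apart while both induced arrays were bright. The normalized mean was 947.6 in induced seedlings (log2 signal 9.89 ± 1.00 SD, n = 2), at least 35.3-fold above the controls. The log2 change was 6.23 ± 1.25 SE (limma adjusted p = 0.0415), and 5.14 with dim signals set to the limit. It was 8.13 without control replicate 1 and 4.11 without control replicate 2, where the call was lost (limma adjusted p = 0.0694). With the first or the second induced array left out it was 5.60 and 7.04, and it passed.

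The 3 LEA_1 genes listed were all measured, and AtLEA4-1 was the 1 called. LEA4-5 (AT5G06760) had normalized signals of 35 and 6.9 in controls against 196.9 and 33 in induced seedlings. LEA18 (AT2G35300), also known as LEA4-2, had 71.3 and 21 against 200 and 62.2. For both, the induced replicate 2 array was below the control replicate 1 array, so the groups overlapped. Their log2 changes of 2.38 ± 1.02 SE and 1.53 ± 0.74 SE did not pass (limma adjusted p = 0.203 and 0.246). Within this class the fitted change of AtLEA4-1 was thus the largest of 3, and the difference between the genes was not tested.

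The LEA_4 class held 4 of the 7 genes. AT3G17520 had deposited signals of 12.8 and 2.7 in controls against 1434.5 and 224 in induced seedlings. The induced arrays differed 4.29-fold after normalization, the widest such gap among the 7 genes. The normalized mean was 534.3 in induced seedlings (log2 signal 9.06 ± 1.49 SD, n = 2), at least 37.5-fold above the controls. Its log2 change was 6.21 ± 0.87 SE (limma adjusted p = 0.0197), and 5.23 with dim signals set to the limit. It was not called with control replicate 2 left out (log2 change 5.14, limma adjusted p = 0.0786). The change was 5.18 when the first induced array was left out and 7.36 when the second was. It was 7.11 without control replicate 1, where the lone control, at 2.7 as deposited, was under the dim limit.

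AT5G44310 was close to zero on both control arrays, with deposited signals of 1.9 and 2, and had 277.7 and 76.8 in induced seedlings. The control arrays lay close together, but under the dim limit, where values have no order. Its normalized mean of 122.6 in induced seedlings (log2 signal 6.94 ± 0.79 SD, n = 2) was at least 8.83-fold above the controls. The fitted log2 change was 5.63 ± 0.54 SE (limma adjusted p = 0.00583). With dim signals set to the limit it fell to 3.14 ± 0.46 SE (limma adjusted p = 0.034), so over 2 log2 units of the fitted value lie under the limit. Without LEC1 induced replicate 1 the fitted change was 5.04, and the call was lost. Without LEC1 induced replicate 2 it was 6.27. Since AT5G44310 entered the test only through the induced arrays, its calls say nothing about stability.

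AT4G21020 had deposited signals of 13.9 and 12 in controls against 839.1 and 162.7 in induced seedlings. After normalization both control arrays, at 15.8 and 17.5, were just above the dim limit, so the fold needs no bound. It rose 20.2-fold, to a mean of 335.5 (log2 change 4.33 ± 0.57 SE, limma adjusted p = 0.016). It was no longer called when control replicate 1 was left out (4.17, limma adjusted p = 0.0932) or control replicate 2 (4.37, limma adjusted p = 0.0836), while the size hardly moved. With the first induced array left out the change was 3.51, and with the second left out it was 5.29.

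AT3G02480 was the gene of the 7 with a clear control signal. Its deposited signals were 94.6 and 36.2 in controls against 1235.5 and 363 in induced seedlings. It rose 8.75-fold, from a normalized mean of 72.2 to 631.9 (log2 change 3.13 ± 0.50 SE, limma adjusted p = 0.025), the smallest fitted change of the 7. With control replicate 1 left out it did not pass (3.49, limma adjusted p = 0.0798), nor with control replicate 2 left out (2.61, limma adjusted p = 0.141). With either induced array left out it passed, at 2.64 for the first and 3.76 for the second (limma adjusted p = 0.0112 and 0.00304).

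Of 17 listed LEA_4 genes, 15 were named alone, 8 were measured, 4 were called higher and 0 lower, beside 2.83% and 2.91% over all tested probe sets. The 4 are the genes just described, which were chosen with their calls known. The median log2 change of the 8 was 3.73, and 2.88 with dim signals set to the limit. Of the 8, 3 passed the filter only through the induced arrays. AT3G17520, AT3G15670 and AT4G36600 also needed an induced array to pass it. The median is thus a description and no support. Of the 4 that were not called, AT1G72100 had normalized signals of 11.9 and 6.4 in controls against 84.7 and 31 in induced seedlings (log2 change 2.56 ± 0.61 SE, limma adjusted p = 0.0637, and 1.88 with dim signals set to the limit). AT2G42560 went from 2.2 and 0.9 to 77.7 and 15.1 (4.62 ± 1.28 SE, limma adjusted p = 0.0866), which came to 1.30 with dim signals set to the limit. Both had control signals under the dim limit and entered the test only through the induced arrays. AT3G15670 had 30.5 and 8.2 in controls, and 492.4 on 1 induced array against 33 on the other (3.01 ± 1.25 SE, limma adjusted p = 0.189). AT4G36600 was seen on the replicate 1 arrays only, at 15.3 in the control and 19.6 in the induced array, with 2.4 and 0.8 on the replicate 2 arrays. Its fitted change of -0.65 ± 2.18 SE carries no direction, and it was 0.0824 without normalization.

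In the remaining LEA classes no gene was called. The LEA_2 genes AT2G44060 and AT2G46140 differed by 0.78 ± 0.28 SE and 0.31 ± 0.32 SE, and the LEA_3 gene DI21, named for its induction by drought, by -0.06 ± 0.34 SE (limma adjusted p = 0.143, 0.563 and 0.924). All 3 were well above the dim limit on every array, and the sign of DI21 turned without normalization, to 0.263. The PvLEA18-type genes AT2G23110 and AT2G23120 lie next to each other in locus number but had different values. AT2G23120 had 823.7 and 502.5 in controls against 1650 and 850.9 in induced seedlings (0.88 ± 0.41 SE, limma adjusted p = 0.228). AT2G23110 had 27.9 and 1.2 against 304.8 and 10, with overlapping groups (3.28 ± 1.93 SE, limma adjusted p = 0.324). AT5G66780, which was given no class here, had 27.3 and 17.3 in controls against 335.6 and 77.6 in induced seedlings, with groups apart (2.89 ± 0.69 SE, limma adjusted p = 0.0628). No member of the LEA_5, SMP and AtM classes was measured.

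Over the whole family of 51 listed LEA genes, 35 were named alone and 22 measured, with 6 called higher and 0 lower, beside 2.83% and 2.91% over all probe sets tested. The 6 are the LEA genes described in full above, which were picked for being called. Of the other 16, limma called 0 in the fit without a replicate block. In that fit 5 of the 16 had an unadjusted p under 0.05, beside 3821 of all 14433 probe sets tested. With a block for the replicate number, 10 of the 16 were called higher, beside 8.16% of all tested probe sets. The labels do not say what that number marks. Among these 16, the fitted change was above 0 for 14, and for 13 under median centring and 16 without normalization, beside 50% of all tested probe sets, 43.8% and 74.1%. Their median log2 change was 1.46, with 0.929 and 1.68 under these scalings. Taking out the called genes conditions these 16 on the outcome, and AT1G72100 and AT2G42560 entered the test only through the induced arrays. LEA4-5, AT3G15670, AT4G36600 and AT2G23110 also needed an induced array to enter it. These counts are thus a description and no support. AT1G72100 and AT5G66780 passed under median centring (limma adjusted p = 0.0463 and 0.0408) and, with AT2G42560 (0.0487), without normalization (0.04 and 0.0225), so the count of called LEA genes depends on scaling. It also depends on the arrays used, since with LEC1 induced replicate 2 left out 8 of the 16 were called higher, beside 4.85% of all tested probe sets in that fit.

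**Figure D2:**
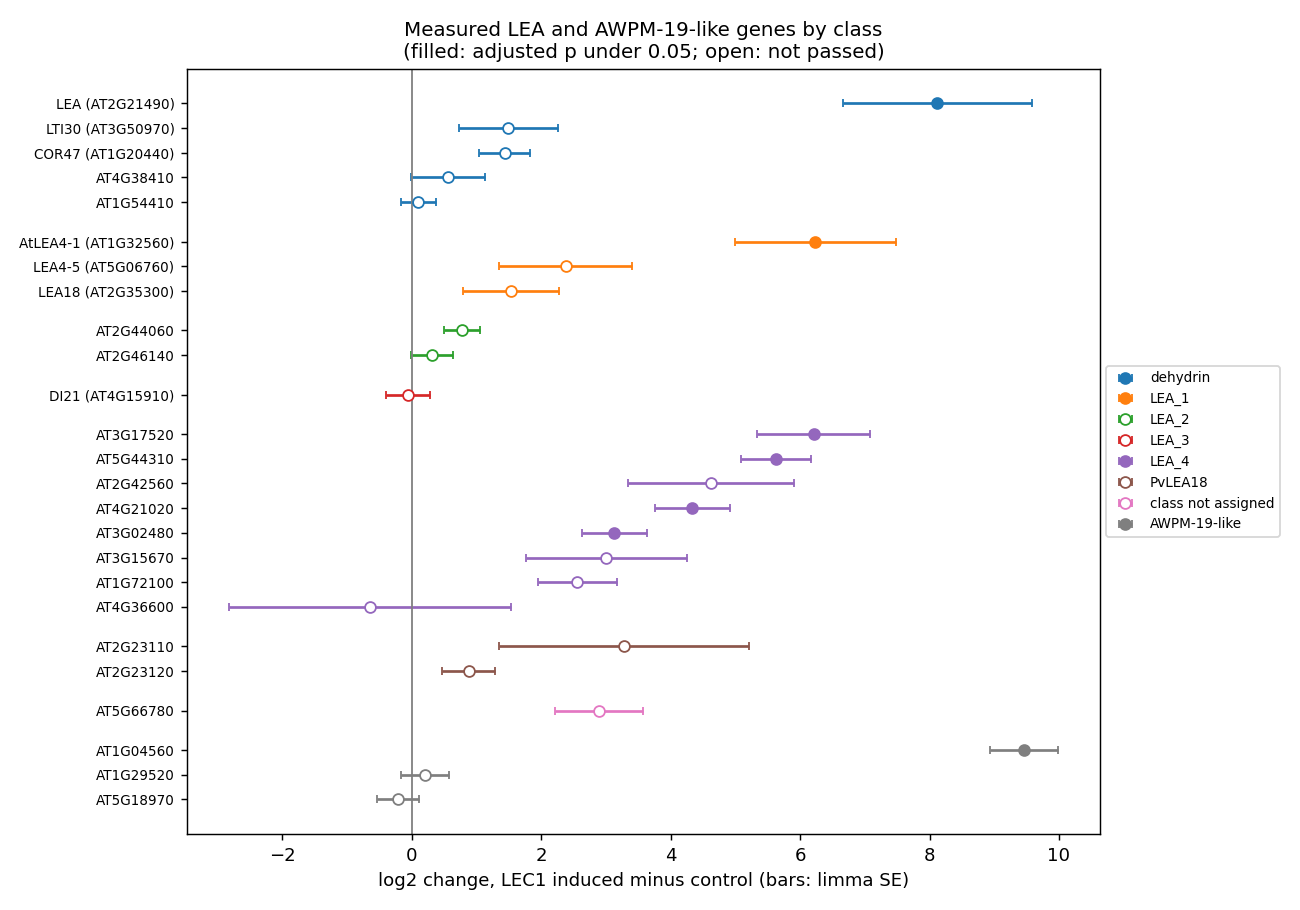
Log2 change between LEC1-induced and control seedlings (x axis, with limma's standard error as bars) for the 22 measured LEA genes and 3 measured AWPM-19-like genes, ordered by class. Filled points passed an adjusted p under 0.05 and open points did not. The dehydrin, LEA_1 and AWPM-19-like classes each hold 1 filled point to the right of open ones, and 4 of the 8 LEA_4 points are filled.

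AT1G04560 had the largest fitted change of the 7 genes. Its deposited signals were 2.7 and 4 in controls against 5906.3 and 1412 in induced seedlings. The 2 control arrays were under the dim limit and both induced arrays were far above it. The normalized mean was 2870 in induced seedlings (log2 signal 11.49 ± 0.98 SD, n = 2), at least 207-fold above the controls. The fitted log2 change was 9.46 ± 0.53 SE (limma adjusted p = 0.00054), and 7.69 with dim signals set to the limit. With 1 array left out the fitted change was 8.85 without LEC1 induced replicate 1, 8.97 without control replicate 1, 9.77 without control replicate 2 and 10.25 without LEC1 induced replicate 2 (limma adjusted p from 1.85e-05 to 0.00497). Since this gene entered the test only through the induced arrays, these calls say nothing about stability. Of the 4 listed AWPM-19-like genes 3 were measured and 1 was called. AT1G29520 had normalized signals of 20 and 24.2 in controls against 23.2 and 27.6 in induced seedlings, and AT5G18970 had 53.4 and 61.6 against 42.7 and 57. Their changes of 0.20 ± 0.38 SE and -0.22 ± 0.32 SE did not pass (limma adjusted p = 0.762 and 0.699), and the second turned to 0.477 without normalization.

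The induced arrays differed between replicates in the same direction on all 7 genes. Replicate 1 was 2.18-fold to 4.29-fold brighter than replicate 2, with a median gap of 1.42 on the log2 scale, beside -0.057 over all tested probe sets. A gap above 1 log2 unit in this direction was found on 8.85% of all tested probe sets. The median gap of the 7 genes was 1.24 under median centring, beside -0.0761 over all, and 2.06 without normalization, beside 0.745. Among genes called higher that are neither LEA genes nor AT1G04560, 149 of 196 were brighter on induced replicate 1, beside 46.3% of all tested probe sets. The median gap of these 196 was 0.288. Without normalization 195 of 196 were brighter there, beside 88.2% of all tested probe sets, with a median gap of 1.06. PAP85 and OLEO3 had induced signals that lay close together, with gaps of 0.18 and -0.04.

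Of the 16 other measured LEA genes, 13 were brighter on induced replicate 1, 16 on control replicate 1 and 13 on both. Over all tested probe sets these shares were 46.3%, 48.9% and 28.9%. The counts here and below take in AT1G72100 and AT2G42560. Their control arrays were both under the dim limit, so their control gaps have no direction. Of all 22 measured LEA genes, 19 were brighter on induced replicate 1, beside 46.3% of all tested probe sets, with a median gap of 1.50. On control replicate 1, 20 were brighter, beside 48.9%, with a median gap of 1.11. Both held for 17 of 22, which is 77.3%, beside 28.9% of all tested probe sets. Under median centring these counts were the same, at 19, 20 and 17, beside 45.3%, 52% and 29.2% of all tested probe sets. Without normalization the counts were 22, 21 and 21, beside 88.2%, 74.9% and 68.4%. In controls the widest gaps among the 7 genes were those of LEA and AtLEA4-1, 4.87 and 4.09, with the replicate 2 array under the dim limit in each case. AT4G21020, with both control arrays above the limit, had a control gap of -0.14, and AT5G44310 and AT1G04560 had both control arrays under it, so their control gaps have no direction. Other values moved with the replicate number too. As deposited, the 24 probe sets for added poly-A spike RNA gave replicate 1 a geometric mean 4.17 times that of replicate 2 in controls. In induced seedlings it was 2.68 times. Relative to the median of each array, the spike signal was 16.8 and 5.21 in controls against 5.77 and 3.81 in induced seedlings. The part of the spikes in the gaps was not tested.

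**Figure D3:**
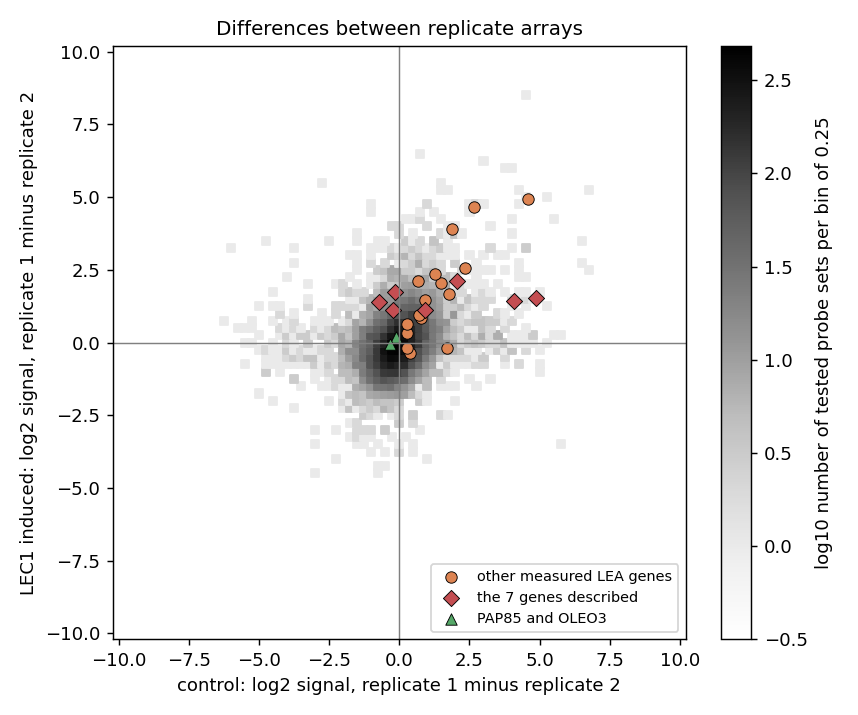
Difference in log2 signal between replicate 1 and replicate 2, in controls on the x axis and in LEC1-induced seedlings on the y axis. Grey squares are bins of 0.25 holding the 14433 tested probe sets (darker for more), red diamonds the 7 genes described, orange circles the other 16 measured LEA genes and green triangles PAP85 and OLEO3. Of the 22 measured LEA genes 17 lie above 0 on both axes, among them AT1G72100 and AT2G42560, whose control gaps have no direction. PAP85 and OLEO3 lie near the centre.

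Control probe sets for RNA integrity also differed by group in part. For the newer actin control probe sets the ratio of 3′ to 5′ signal was 3.28 and 3.01 in controls against 1.96 and 1.94 in induced seedlings. The older actin pair gave 21.8 and 25.1 against 21.6 and 20.7, with less distance between the groups. The newer GAPDH pair gave 0.773 and 0.89 against 0.932 and 0.911, and the older one 1.56 and 1.64 against 1.82 and 1.15. Their part in the changes of the LEA genes was not tested.

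Among regulators of seed maturation, a list of 11, EEL and BZIP53 were measured. EEL, a bZIP transcription factor named for its effect on the level of the LEA gene Em, had normalized signals of 8 and 10.7 in controls against 393 and 203.2 in induced seedlings, at least 20.4-fold higher. Its control arrays were both under the dim limit, and it entered the test only through the induced arrays. The fitted log2 change was 4.93 ± 0.42 SE (limma adjusted p = 0.00359), and 4.35 with dim signals set to the limit. BZIP53, another bZIP factor of maturation, had 224.5 and 363.4 against 491.6 and 256.8, so its groups overlapped (0.31 ± 0.43 SE, limma adjusted p = 0.67), and its sign turned under median centring, to -0.139. The lists of 15 abscisic acid genes and of 8 genes of other drying protection had 0 members named alone and were not analysed here.

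The genes most like the 7 were found by the root mean square distance, over the 4 arrays, between a gene's normalized log2 signals and the mean of the 7 genes. That mean corresponds to signals of 14.8 and 5.07 in controls against 1040 and 369.5 in induced seedlings. Among 7690 tested probe sets naming 1 other gene, the 5 nearest were AT1G27461 (distance 0.331), AT3G18570 (0.397), AT5G01670 (0.495), AT5G62800 (0.606) and AT2G38905 (0.715), and none of these is a listed LEA gene. AT1G27461 had normalized signals of 21.2 and 4.87 in controls against 931.1 and 479.3 in induced seedlings. AT5G01670 and AT2G38905 had gaps between induced arrays about as wide as that of AT3G17520, with 808.3 and 200.6 for the first and 1005 and 265 for the second. AT3G18570 and AT5G62800 had narrower gaps, of 0.50 and 0.68 on the log2 scale. AT5G62800 had both control arrays under the dim limit and entered the test only through the induced arrays. Each of the others had 1 control array under the limit and also needed an induced array to enter the test. The distances thus rest in part on signals that are not read as levels. With 4 arrays in 2 groups this likeness is a description of these arrays.

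All 7 genes were higher in induced seedlings under each of 14 alternative settings. They were chosen with their calls known, and their groups lay at least 2.1 log2 units apart. This direction was thus largely fixed by the choice, and nothing is read from it. The calls of the 7 genes differed more between settings. AT1G04560 lost its call under 1 of 14, AT2G21490, AT3G17520 and AT5G44310 under 2, AT4G21020 under 3, AT3G02480 under 4 and AtLEA4-1 under 5. AT1G04560 and AT5G44310 entered the test only through the induced arrays, so their counts say nothing about stability. AtLEA4-1, LEA and AT3G17520 also needed an induced array to enter it, so their counts are a description only.

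**Figure D4:**
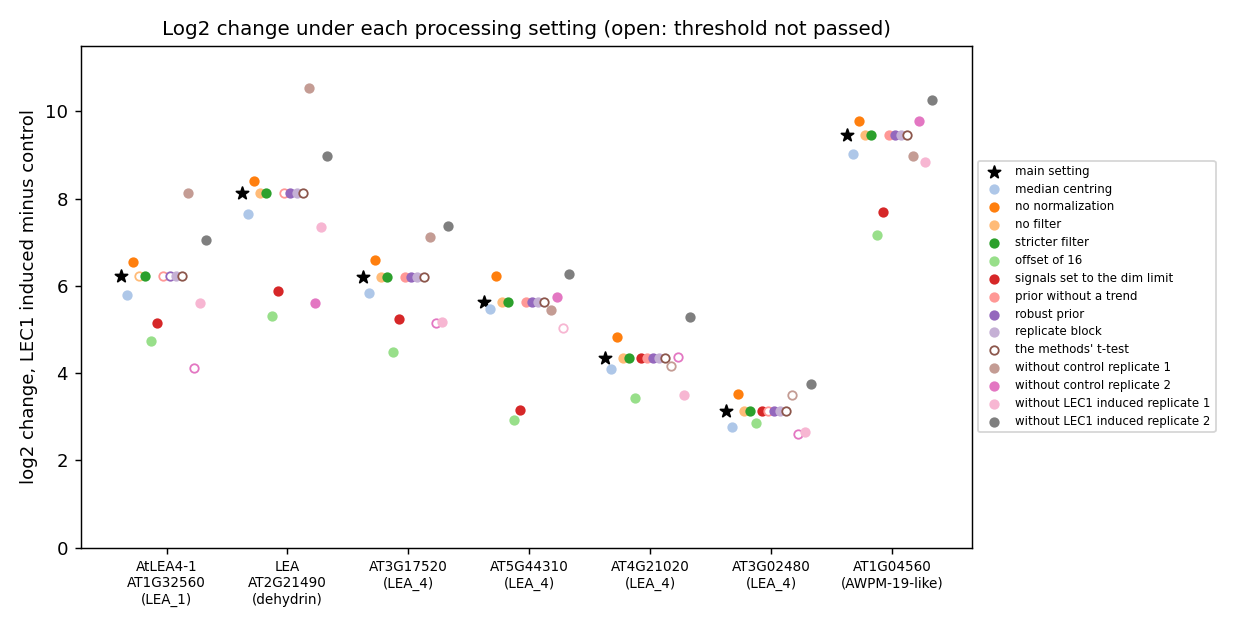
Log2 change between LEC1-induced and control seedlings (y axis) of each of the 7 genes under the main setting (black star) and 14 alternative settings (coloured points), with open points where the threshold of that setting was not passed. All points lie above 0, between 2.61 for AT3G02480 and 10.54 for LEA, a direction largely fixed by the choice of the genes. The 10.54 rests on a lone control array under the dim limit.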

How the data were processed

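Per the labels' protocols, whole-seedling RNA was amplified in 2 cycles for Affymetrix ATH1 arrays. The deposited table holds linear intensity values, with a signal for each probe set on each array, and the submitters' processing notes name MAS5. The scaling, and whether probe sets were detected, is not given in the sources used here. Of 22810 probe sets, 64 array controls were left out. Signals under 0.1 were set to 0.1, put on the log2 scale and quantile normalized, and a probe set was tested if its deposited signal was above the 40th percentile of that array on at least 2 arrays (14433 of 22746). The comparison used lmFit and eBayes with a trend, two-sided, from limma 3.58.1 under R 4.3.3 (Benjamini-Hochberg over all tested probe sets, threshold 0.05), with 2 residual and 4.39 prior degrees of freedom. Only 2 arrays per group limit the precision.

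Where a control array was under the dim limit, a fold is a lower bound, with control signals under the limit set to it. Group means are geometric. In the platform annotation 13513 probe sets name 1 gene, 503 name several and 8730 have no name here. Loci came from the TAIR10.1 gene table, for 13436 of the 13513. Positions and sequences are not given, since no genome build or sequence table was used here. LEA classes follow the published classification of the family, not the files. The 7 genes, the gene lists and the tests were chosen with earlier results of these data known. The rule for named genes took the 7 genes, listed genes that a probe set names alone and the 5 genes nearest in pattern. Alternatives changed the normalization, filter, floor, dim signals, variance prior, block and test, or left out an array.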

Additional observations from a re-analysis of the deposited data

How the results depend on the processing

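All 7 genes were higher in induced seedlings under all 14 alternatives, a direction largely fixed by their choice, and their calls changed more. The calls of AT5G44310 and AT1G04560 say nothing about stability, since both genes entered the test only through the induced arrays. Those of AtLEA4-1, LEA and AT3G17520, which also needed an induced array to enter it, are a description only. Of the 7, 6 were called without the filter, beside 1.54% of all probe sets called higher in that fit, and 6 with a robust prior, beside 3.18%. With a prior without a trend 4 were called, beside 1.61%. When 1 array was left out, the lone array of a group was assumed to vary like the other group. The methods' t-test, at a false discovery rate of 0.2, called 0 of the 7 (Benjamini-Hochberg adjusted values of 0.209 to 0.352). Its unadjusted value was under 0.05 for 3 of 7, beside 2494 of all 14433 probe sets tested. In limma this held for 7 of 7, a count fixed by the choice of the genes, beside 3821 of 14433. AtLEA4-1 was not called without the filter (limma adjusted p = 0.052), with a robust prior (0.0568) or with a prior without a trend (0.0807), where LEA (0.0687) and AT3G02480 (0.0574) were not called either. Over all probe sets, 408 were called higher and 420 lower, and these counts were 447 and 962 under median centring, 494 and 97 without normalization, 233 and 148 with a prior without a trend and 189 and 207 by the methods' t-test. Leaving out 1 array gave 141 to 700 higher and 6 to 1103 lower. The causes were not tested.

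The replicate numbers are shared by the groups, and the differences between replicates 1 and 2 correlated at 0.311 between the groups over tested probe sets. The labels do not say what a number marks, and 2 pairs cannot settle it. With the replicate block 1178 probe sets were called higher and 1405 lower, all 7 genes passed (limma adjusted p up to 0.00233), and 10 of the 16 other measured LEA genes were called higher, beside 8.16% of all tested probe sets. Signals under the dim limit set a floor to what can be measured in controls, which touches 5 of the 7 genes.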

Other observations

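Of the 35 LEA genes that a probe set names alone, 13 were too dim for the test, and in 2 of these the induced replicate 1 array stood alone. The LEA_4 gene AT3G53040 had deposited signals of 6.2 and 8.5 in controls, 201.2 on induced replicate 1 and 5 on induced replicate 2. M10 (AT2G41280), of the AtM class, had 7.3 and 1.2 in controls, 88.6 on induced replicate 1 and 0.5 on induced replicate 2. Neither reached the filter on a second array, so neither was tested. The cold-regulated LEA_4 genes COR15A and COR15B were dim throughout, with deposited signals of 4.3 to 10.8 for the first and 6.9 to 10.8 for the second. M17 (AT2G41260), which like M10 is of the AtM class, had 4.1 and 0.3 in controls against 4.3 and 0.3 in induced seedlings. The seed maturation protein (SMP) genes AT3G22490 and AT5G27980 stayed at or under 7 on every array.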
